A study of Mus musculus with 6 samples.

Results

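The iron handling genes described here are Hamp, Slc40a1, Hjv, Hfe, Tfrc, Slc11a2, Slc39a14, Fth1, Ftl1 and Hmox1, 10 of the 55471 genes in the deposited table. They were taken by gene symbol, 1 row each, and all 10 passed the filter on low counts that left 15218 genes for testing. The set was selected on the Hamp counts of these same libraries, which were far higher after mitral regurgitation, so the values of Hamp are given as a description and without a test. Left atria came from male adult mice of the strain C57BL/6J, operated on at 10 weeks of age and sampled 2 weeks after the operation. In the mitral regurgitation group (MR, n = 3) the anterior leaflet of the mitral valve was punctured under echocardiographic guidance, which makes the valve leak back into the atrium. In the control group (Sham, n = 3) the apex of the heart was punctured and the leaflet was left intact. The labels give no other allele or agent for either group and call the samples biological replicates. Each library was made from poly(A) RNA of bulk tissue, so less RNA per cell and fewer cells of a type cannot be told apart.

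Hepcidin, the product of Hamp, is a peptide hormone that binds the iron exporter ferroportin (Slc40a1) and removes it from the cell surface. Most circulating hepcidin comes from the liver, and the heart also makes hepcidin, which acts on the ferroportin of heart muscle cells. In hepatocytes Hamp is driven by bone morphogenetic proteins (BMPs), with hemojuvelin (Hjv) as co-receptor and SMAD proteins as messengers, and by interleukin-6 through STAT3. The transferrin receptor (Tfrc) brings iron into cells, ferritin (Fth1 and Ftl1) stores it, and haem oxygenase 1 (Hmox1) frees it from haem. When iron is scarce, iron regulatory proteins bind hairpins called iron-responsive elements (IREs), which stabilises Tfrc mRNA and holds back the translation of ferritin mRNA.

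Counts per library summed to between 14124407 and 19222343 in MR and between 14718462 and 20039490 in Sham. Levels of 1 gene between libraries are in CPM, the share of counts on library sizes scaled by TMM, and levels of different genes are compared in TPM, which is also divided by gene length. The atrial marker Myl7 was at 4774 to 6422 CPM in MR and at 7140 to 8697 CPM in Sham, and the 4 ventricular markers summed to 113 to 166 CPM in MR and 248 to 305 CPM in Sham. Nearly all of that sum came from Myl3 (48.1 to 52.6 CPM in MR, 124 to 154 CPM in Sham) and Myh7 (58.3 to 111 CPM in MR, 123 to 163 CPM in Sham), whereas Myl2 reached 2.30 CPM in MR and 1.02 CPM in Sham and Irx4 was at 0 in every library. Ribosomal RNA transcripts (mt-Rnr1, mt-Rnr2 and, where listed, Gm42418) took 0.485% to 0.653% of counts in MR and 0.951% to 1.79% in Sham, without overlap. The part of this gap in the results was not tested. MR libraries 1 and 2 held transcripts of fat cells: the adipocyte hormone Adipoq stood at 43.9, 67.0 and 0.449 CPM in MR libraries 1 to 3, against 0.320, 0 and 2.02 CPM in Sham libraries 1 to 3. Scaling mattered for small changes. With library totals in place of TMM the log2 fold change of the median gene moved up by 0.21, and on the TPM scale it moved up by 0.33.

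Hamp was scarce in the Sham atrium and among the abundant transcripts of the MR atrium. It had 1111, 937 and 1221 counts in MR libraries 1 to 3, against 40, 26 and 67 counts in Sham libraries 1 to 3. In CPM the levels were 72.7, 60.0 and 60.9 in MR, against 2.13, 1.90 and 4.84 in Sham. All 3 MR libraries were high and lay close together, the groups did not overlap, and Sham 3 was the highest of the Sham libraries. The means were 64.5 ± 7.06 CPM in MR and 2.96 ± 1.64 CPM in Sham (SD, n = 3 each), a ratio of 21.8. The log2 fold change was 4.47 ± 0.25 (SE), rank 24 from the top of the 15218 genes tested. Left out one at a time, the libraries gave values between 4.25 (without Sham 1) and 4.98 (without Sham 3). Ordered by TPM, Hamp held rank 155, 193 and 191 among all genes in MR libraries 1 to 3, against rank 6336, 6850 and 3149 in Sham libraries 1 to 3. The log2 fold change of Hamp in the authors' deposited table was 3.67, and how that table was computed is not given in the sources used here.

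**Figure D1:**
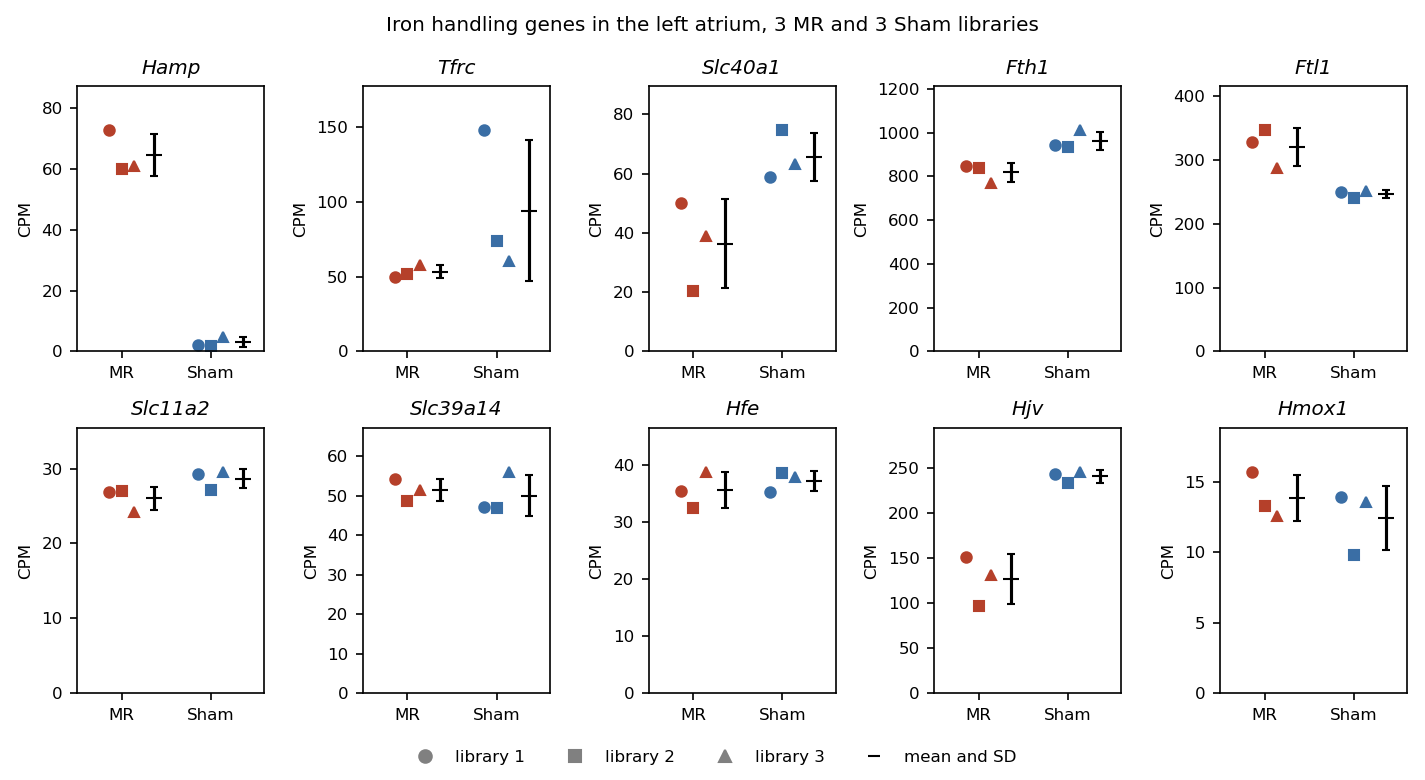
Level of each of the 10 genes in CPM (linear axes from 0) in the 3 MR and 3 Sham libraries; points are libraries and bars are the mean and SD. Hamp stood at 60.0 to 72.7 CPM in MR and 1.90 to 4.84 CPM in Sham, Hjv was lower in every MR library, and Sham library 1 held the highest Tfrc level.

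Of 12 hepatocyte markers, 7 had at most 3 counts over all 6 libraries together, among them albumin (Alb), which had 1 count in MR library 3 and 0 in every other library. The summed level of the list was 90.5 to 119 CPM in MR and 44.6 to 63.8 CPM in Sham, nearly all of it from Ahsg (89.6 to 117 CPM in MR, 43.2 to 62.7 CPM in Sham). Sums of markers of other cell types also differed between the groups. Summed cardiomyocyte markers were at 71466 to 85880 CPM in MR and at 98653 to 110508 CPM in Sham, with 7 of 11 lower and 0 higher. The summed macrophage markers were at 648 to 864 CPM in MR and at 484 to 496 CPM in Sham, with 8 of 11 higher. Mrc1 on this list was lower in every MR library (41.6 to 50.6 CPM, against 51.0 to 58.2 CPM in Sham) without passing the test. The 4 haemoglobin genes of the red cell list were higher, and the red cell list summed to 408 to 538 CPM in MR and 261 to 330 CPM in Sham. The endothelial markers summed to 1452 to 1766 CPM in MR and 1106 to 1446 CPM in Sham, and the fibroblast markers to 2812 to 3709 CPM in MR and 2257 to 2758 CPM in Sham, with 3 of 8 higher and 0 lower in each list. Each of these sums separated the groups (two-sided exact permutation test, p = 0.1, the smallest that 3 against 3 allows). Of all genes tested, 11.8% were called higher and 10.6% lower, and 41.9% did not overlap between MR and Sham in CPM. Bmp10, a BMP family ligand on the right atrium and sinus node list, measured 2900, 3048 and 3371 CPM in MR libraries 1 to 3, against 0.266, 0.146 and 0.217 CPM in Sham libraries 1 to 3. The part of these cell types and of Bmp10 in the level of Hamp was not tested.

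Mice carry a near copy of the hepcidin gene, Hamp2, which followed Hamp at a much lower level. Hamp2 had 29, 33 and 27 counts in MR libraries 1 to 3, against 2, 1 and 0 counts in Sham libraries 1 to 3. The log2 fold change was 4.62 ± 0.56 (SE; edgeR adjusted p = 0.00126), and with 3 Sham counts in all its size depends on the prior count of the fit. Hamp2 made up 2.65% of the counts of both hepcidin genes in MR (95% Clopper-Pearson interval 2.13 to 3.25) and 2.21% in Sham (0.457 to 6.31), intervals that cover counting error only. The Sham interval contains the MR share, so a shift between the copies was not detectable at this depth. In the reference transcripts, 16.6% of the 50-base windows of Hamp also occur in Hamp2 and 0 of its 100-base windows do, so a few reads may be placed with either copy.

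The promoters of both copies are shown because their sequences differ inside a match to the core of the BMP response element. The part of this difference in the level of Hamp or Hamp2 was not tested. The 250 bases before the annotated start are given, Hamp at chr7:30944030-30944279 and Hamp2 at chr7:30924182-30924431, both on the minus strand of GRCm38.p6 (RefSeq), written 5′ to 3′ in the direction of transcription. Capitals mark the matches to GGCGCC, the core of the BMP response element, and to TTCNNNGAA, the STAT site.
Hamp: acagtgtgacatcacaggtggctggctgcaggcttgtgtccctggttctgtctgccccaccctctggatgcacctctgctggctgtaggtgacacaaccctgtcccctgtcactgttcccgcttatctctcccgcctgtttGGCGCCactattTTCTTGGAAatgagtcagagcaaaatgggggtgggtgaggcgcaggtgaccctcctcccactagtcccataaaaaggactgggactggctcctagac
Hamp2: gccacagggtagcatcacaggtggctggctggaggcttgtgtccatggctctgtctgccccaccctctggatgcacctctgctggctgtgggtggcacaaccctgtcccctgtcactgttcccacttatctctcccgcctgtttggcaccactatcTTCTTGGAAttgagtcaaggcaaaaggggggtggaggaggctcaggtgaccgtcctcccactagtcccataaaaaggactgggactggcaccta
The Hamp window holds 1 GGCGCC, 109 bases before the start, and 1 STAT site 97 bases before it. Hamp2 holds the STAT site, 94 bases before its start, and no GGCGCC. Aligned without gaps, 91.9% of 247 compared bases were identical. The 40 bases around the element, with the same capitals, show the difference.
Hamp element: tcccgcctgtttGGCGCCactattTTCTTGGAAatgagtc
Hamp2 element: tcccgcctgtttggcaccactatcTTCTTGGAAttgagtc
Counted from 1 at the 5′ end of this stretch, the changes from Hamp to Hamp2 are G16A, T24C and A34T, and the element spans positions 13 to 18. Another motif searched, TGAGTCA (the AP-1 site), begins 87 bases before the start of Hamp and 84 bases before that of Hamp2. Of 32851 mouse promoter windows of the same length, 9.59% hold GGCGCC, 7.02% hold TTCNNNGAA and 4.46% hold TGAGTCA on either strand, and the motifs did not overlap each other in these windows. A match describes letters in the window and was not tested as a binding site. Among the 10 genes, 5 had a promoter entry, and GGCGCC was in the windows of Hamp and Tfrc.

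Hjv and Hfe stand upstream of Hamp in hepatocytes, and Hjv moved opposite to Hamp. Hjv, the BMP co-receptor hemojuvelin, also made by striated muscle, measured 151, 96.7 and 131 CPM in MR libraries 1 to 3, against 243, 233 and 245 CPM in Sham libraries 1 to 3. Every MR library was below every Sham library, and MR 2 was the lowest. Hjv fell by 0.93 on the log2 scale (SE 0.15; edgeR adjusted p = 0.00372), rank 208 from the bottom of the genes tested. The call held under all settings tried, with log2 fold changes between -1.09 (without MR 1) and -0.73 (library totals), and the ratio of mean TPM was -0.60 on the log2 scale. Summed cardiomyocyte markers, given above, were lower in the same libraries, with a median of -0.56 on the log2 scale over the list, and their part in the fall of Hjv was not tested. Hfe, the haemochromatosis protein that binds the transferrin receptor, measured 35.6, 32.5 and 38.8 CPM in MR libraries 1 to 3, against 35.3, 38.7 and 37.9 CPM in Sham libraries 1 to 3. In CPM its groups overlapped, and its log2 fold change was -0.06 ± 0.09 (edgeR adjusted p = 0.664).

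Slc40a1, the ferroportin that hepcidin acts on, was lower in MR. Its levels were 50.1, 20.2 and 38.9 CPM in MR libraries 1 to 3, against 58.9, 74.6 and 63.4 CPM in Sham libraries 1 to 3. In CPM the groups did not overlap, and MR 2 was well below the other MR libraries. In TPM they overlapped, at 14.6, 5.96 and 10.6 in MR libraries 1 to 3, against 13.3, 16.3 and 15.0 in Sham libraries 1 to 3, and the ratio of mean TPM was -0.52 on the log2 scale. The log2 fold change was -0.85 ± 0.25 (edgeR adjusted p = 0.0374), and it missed the threshold without Sham 1, Sham 2, Sham 3 or MR 3 (adjusted p = 0.0835, 0.116, 0.0833 and 0.0656). Without MR 2, the lowest library, the log2 fold change was -0.56 and the adjusted p was 0.0338. The adjusted p was 0.104 with DESeq2 and 0.0635 with library totals. In the authors' deposited table the log2 fold change of Slc40a1 was -0.98 with an adjusted p of 7.37e-05. The oxidases Cp (ceruloplasmin) and Heph (hephaestin), which load exported iron onto transferrin, did not pass the test and had log2 fold changes of 0.03 ± 0.09 and 0.18 ± 0.16 (edgeR adjusted p = 0.866 and 0.452). Within each library, Hamp TPM was 31.8, 65.1 and 34.4 times Slc40a1 TPM in MR, against 0.794, 0.558 and 1.68 times in Sham.

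Among the iron importers, Tfrc was lower in MR without passing the test. Its levels were 49.6, 51.6 and 58.0 CPM in MR libraries 1 to 3, against 148, 73.8 and 60.5 CPM in Sham libraries 1 to 3. The MR libraries were alike, whereas Sham 1 was far above the other Sham libraries and Sham 3 was just above the highest MR library. The log2 fold change was -0.83 ± 0.27 (edgeR adjusted p = 0.0522). It was -0.34 without Sham 1 (adjusted p = 0.0944) and -1.07 without Sham 3 (0.0288), so its size rests on those libraries. With no filter on low counts the edgeR adjusted p was 2.32e-11, while the log2 fold change was -0.85. That setting gave 1.96e-172 for haptoglobin (Hp), whose groups overlapped, so its small p-values are not taken as support. With DESeq2 the adjusted p of Tfrc was 0.132. By TPM the groups overlapped, since MR 3 was at 23.0, against 48.4, 23.5 and 20.8 in Sham libraries 1 to 3. In the authors' deposited table the log2 fold change of Tfrc was -0.32 with an adjusted p of 0.174. Slc11a2, the divalent metal transporter DMT1 that moves iron out of endosomes, measured 26.9, 27.0 and 24.2 CPM in MR libraries 1 to 3, against 29.2, 27.1 and 29.5 CPM in Sham libraries 1 to 3. In CPM its groups did not overlap by a narrow margin, and its log2 fold change was -0.14 ± 0.09 (edgeR adjusted p = 0.290). Slc39a14, the transporter ZIP14 for iron not bound to transferrin, measured 54.1, 48.5 and 51.5 CPM in MR libraries 1 to 3, against 47.2, 46.8 and 55.9 CPM in Sham libraries 1 to 3. In CPM its groups overlapped, with a log2 fold change of 0.04 ± 0.10 (edgeR adjusted p = 0.790).

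Of the ferritin chains, Ftl1 was called higher in MR and Fth1 did not pass the test. Ftl1, the light chain that helps form the iron core, measured 328, 347 and 287 CPM in MR libraries 1 to 3, against 250.1, 240.1 and 252 CPM in Sham libraries 1 to 3. All MR libraries were higher, and Ftl1 rose by 0.37 ± 0.10 on the log2 scale (edgeR adjusted p = 0.0274). The call was lost without MR 1, MR 2, Sham 1, Sham 2 or Sham 3 (adjusted p = 0.0600, 0.0683, 0.0809, 0.1001 and 0.0698). With MR 3 as the sole MR library the log2 fold change was 0.21 (adjusted p = 0.383). Fth1, the heavy chain that oxidises iron for storage, measured 846, 838 and 769 CPM in MR libraries 1 to 3, against 941, 934 and 1011 CPM in Sham libraries 1 to 3. Its groups did not overlap on this scale, and its log2 fold change of -0.23 ± 0.10 did not pass (edgeR adjusted p = 0.133), while the authors' deposited table gave -0.26 with an adjusted p of 0.0212. With library totals the log2 fold change of Fth1 was -0.03, and the ratio of mean TPM was 0.10 on the log2 scale, so its direction depends on the scaling.

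The ratio of the chains within a library does not depend on library scaling. Ftl1 TPM was 1.00, 1.07 and 0.967 times Fth1 TPM in MR libraries 1 to 3, against 0.688, 0.665 and 0.646 times in Sham libraries 1 to 3. The ratio averaged 1.01 ± 0.0528 in MR and 0.666 ± 0.0211 in Sham (SD, n = 3 each), and it was higher in every MR library (two-sided exact permutation test, p = 0.1, the smallest possible). Reads of Ftl1 are uncertain, since 73.4% of the 50-base windows and 59.3% of the 100-base windows of its reference transcript also occur in copies of the gene, against 0% of either for Fth1. Rows named as ferritin copies held 0.283% of all ferritin counts, and Ftl1-ps2 had 39, 55 and 72 counts in MR libraries 1 to 3, against 65, 31 and 40 in Sham libraries 1 to 3.

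**Figure D2:**
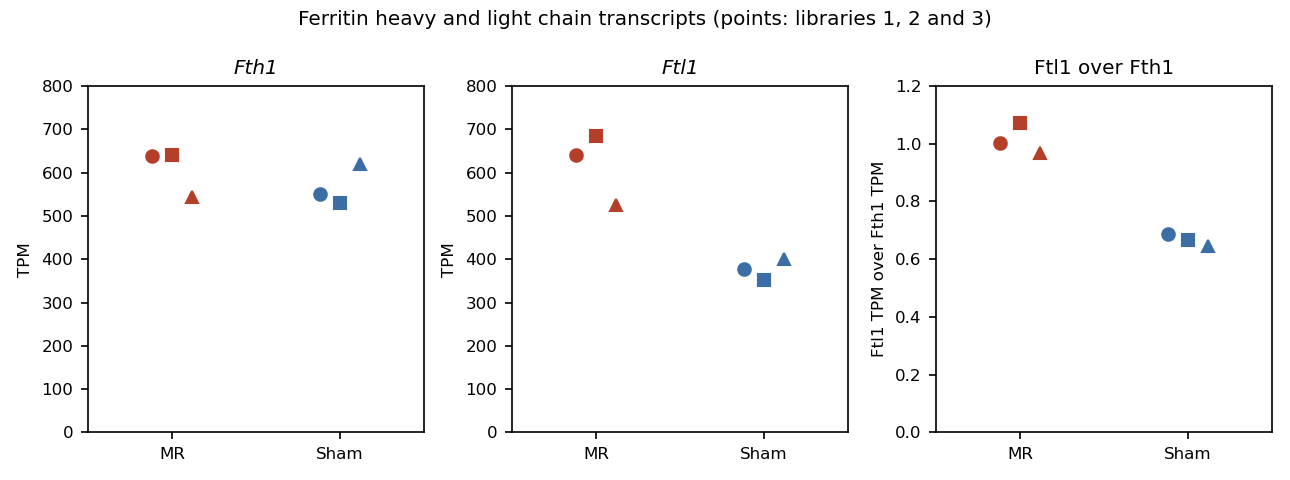
Fth1 and Ftl1 in TPM and the ratio of their TPM in the 3 MR and 3 Sham libraries, with axes from 0 and 1 point per library (circle, square and triangle for libraries 1, 2 and 3). The ratio lay between 0.967 and 1.07 in MR and between 0.646 and 0.688 in Sham.

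Hmox1, which breaks haem down to iron, biliverdin and carbon monoxide, measured 15.7, 13.3 and 12.6 CPM in MR libraries 1 to 3, against 13.9, 9.85 and 13.6 CPM in Sham libraries 1 to 3. In CPM the groups overlapped, and the log2 fold change was 0.15 ± 0.16 (edgeR adjusted p = 0.523).

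Matches to a pattern for iron-responsive elements are shown for these genes. Tfrc carries several and the 3 storage and export genes carry 1 each, at opposite ends of the mRNA. Sites were searched in GENCODE M21 untranslated regions as a C, 5 bases, the loop CAGTGN, and 5 bases that pair with the first 5 (G-U pairs allowed). Capitals mark the loop.
Tfrc site 1, 3′ UTR: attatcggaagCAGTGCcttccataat
Tfrc site 2, 3′ UTR: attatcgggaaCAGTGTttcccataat
Tfrc site 3, 3′ UTR: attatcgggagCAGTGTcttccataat
Tfrc site 4, 3′ UTR: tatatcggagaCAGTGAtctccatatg
Slc40a1 site, 5′ UTR: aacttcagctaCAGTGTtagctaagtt
Fth1 site, 5′ UTR: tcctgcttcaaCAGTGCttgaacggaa
Ftl1 site, 5′ UTR: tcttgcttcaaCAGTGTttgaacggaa
Tfrc held 4 matches in its 3′ UTR, and Slc40a1, Fth1 and Ftl1 held 1 in the 5′ UTR. By this pattern 0.148% of genes with a 5′ UTR and 0.613% of genes with a 3′ UTR have a match, and 4 of the 10 genes here carry one. Of the genes with a 5′ match, Slc40a1 was lower in mRNA level, Ftl1 was higher and Fth1 did not pass. The pattern misses hairpins with other pairing, so a gene without a match, such as Slc11a2, may still carry an element. A pairing pattern describes the sequence, and protein levels and iron were not measured.

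Of the 9 genes other than Hamp, 1 was called higher (Ftl1) and 2 were called lower (Slc40a1 and Hjv), beside a background of 22.4% of all genes tested, 11.8% higher and 10.6% lower. In CPM, MR and Sham did not overlap for 6 of the 9, Ftl1 with MR higher and Tfrc, Slc40a1, Fth1, Slc11a2 and Hjv with MR lower, beside 41.9% of all genes tested. In TPM they did not overlap for 5 of the 9, Ftl1, Slc39a14, Hfe and Hmox1 with MR higher and Hjv with MR lower, beside 55.5% of all genes tested, so that Ftl1 and Hjv separated on both scales. The 9 had a median log2 fold change of -0.14, beside 0.00163 for all genes tested. Leaving out a single library left 1 or 2 of the 9 called, and Hjv was called each time. On the TPM scale the order of levels in MR was Ftl1, Fth1, Hamp, Hjv, Hfe, Tfrc, Hmox1, Slc39a14, Slc11a2 and Slc40a1, with means between 617 and 10.4 TPM. In Sham it was Fth1, Ftl1, Hjv, Tfrc, Hfe, Hamp, Slc40a1, Hmox1, Slc39a14 and Slc11a2, with means between 566 and 9.20 TPM. Hamp was at 464, 388 and 365 TPM in MR libraries 1 to 3, against 10.5, 9.11 and 25.1 TPM in Sham libraries 1 to 3. In MR it therefore stood below both ferritins and above Hjv with no overlap, whereas in Sham it overlapped with Hfe and Slc40a1. The pairs Ftl1 and Fth1, Tfrc and Hmox1, and Slc11a2 and Slc40a1 overlapped in MR. In Sham every neighbouring pair from Tfrc down to Slc11a2 overlapped.

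**Figure D3:**
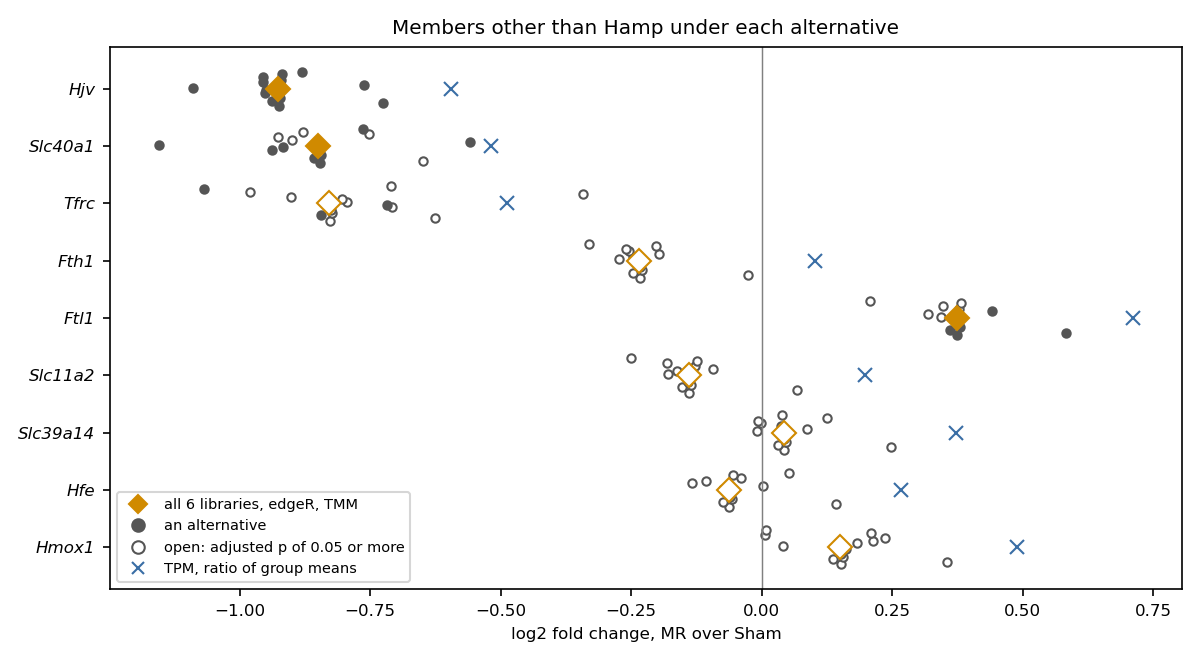
Log2 fold change, MR over Sham, of the 9 genes other than Hamp with all 6 libraries (diamonds), under each alternative setting (circles) and from group means of TPM (crosses); open symbols had an adjusted p of 0.05 or more. Hjv passed under every alternative, and Fth1 (by TPM), Slc11a2, Slc39a14 and Hfe had symbols on both sides of 0.

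The rest of iron biology was read from 12 lists holding 155 further genes, of which 139 could be tested. Of these 28 were higher and 22 were lower (20.1% and 15.8%), beside 11.8% and 10.6% of all genes tested, with a median log2 fold change of -0.0029. With library totals the counts were 47 higher and 8 lower. The counts were 17 and 11 without Sham 1, 18 and 11 without Sham 2, 19 and 15 without Sham 3, 21 and 11 without MR 2, 24 and 14 without MR 3, and 18 and 4 with MR 3 as the sole MR library. Of the 50 calls, 26 held whichever single library was left out, 17 higher and 9 lower. The lists were chosen with earlier results of these data known. The shares called on each list, here and below, are therefore a description and not independent support.

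The BMP and SMAD target genes formed the list with the highest median. Of 9 tested besides Hamp, 8 were higher and 0 were lower (88.9% and 0%, beside 11.8% and 10.6% of all genes tested). The median was 1.11 on the log2 scale, and all 8 calls held in every leave-one-out fit and with library totals. Smad6, an inhibitory SMAD induced by BMP signals, measured 33.1, 49.4 and 32.8 CPM in MR libraries 1 to 3, against 11.7, 9.85 and 10.3 CPM in Sham libraries 1 to 3 (log2 fold change 1.85 ± 0.17; edgeR adjusted p = 0.000351). Smad9, which encodes a BMP-responsive SMAD, rose by 2.00 ± 0.26 and Id1, a BMP-induced inhibitor of differentiation, by 0.70 ± 0.09 (edgeR adjusted p = 0.00204 and 0.00185). Bambi, a decoy receptor that dampens BMP signals, was the member that did not pass, with a log2 fold change of -0.0029 ± 0.13. Hamp stands on this list itself and is left out of the counts. The list was chosen with earlier results of these data known, so its share of calls is a description. Of the 9 other genes on the list 6 had a promoter entry, and the GGCGCC core was in 3 of them (Id2, Id4 and Smad9), beside 9.59% of all promoter windows. Sums of endothelial, fibroblast and macrophage markers, given above, were higher in the same libraries, and their part in the levels of this list was not tested.

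Among the genes that control hepcidin in hepatocytes, 4 of 17 tested were higher and 0 were lower (23.5% and 0%), with a median of 0.10. These counts leave out Hjv and Hfe, which are described above. Of all genes tested, 11.8% were higher and 10.6% lower. Atoh8, a transcription factor that raises Hamp in liver cells, rose by 1.37 ± 0.20 (edgeR adjusted p = 0.00295), and this call held whichever library was left out. Bmp6, the ligand by which liver vessels report iron stores, measured 52.1, 149 and 69.2 CPM in MR libraries 1 to 3, against 38.6, 45.1 and 30.0 CPM in Sham libraries 1 to 3. Its groups did not overlap and MR 2 was far above the rest (log2 fold change 1.25 ± 0.33; edgeR adjusted p = 0.0240). Without Sham 1, Sham 2 or Sham 3 the adjusted p of Bmp6 was 0.0886, 0.0530 and 0.0898. Acvr1, the BMP receptor ALK2, rose by 0.38 ± 0.10 (edgeR adjusted p = 0.0261), a call lost without MR 2, MR 3, Sham 1 or Sham 3 (highest adjusted p 0.0876). Il6ra, the interleukin-6 receptor, completes the count and was named after its value was seen (log2 fold change 0.66 ± 0.18). Its adjusted p reached 0.110, and it was lost without any single library except MR 3. Il6, Tfr2, Tmprss6, Erfe and Fgl1 were too low to test. Stat3 had a log2 fold change of -0.21 ± 0.11 and Socs3, a STAT3 target, of 0.21 ± 0.19 (edgeR adjusted p = 0.194 and 0.460).

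**Figure D4:**
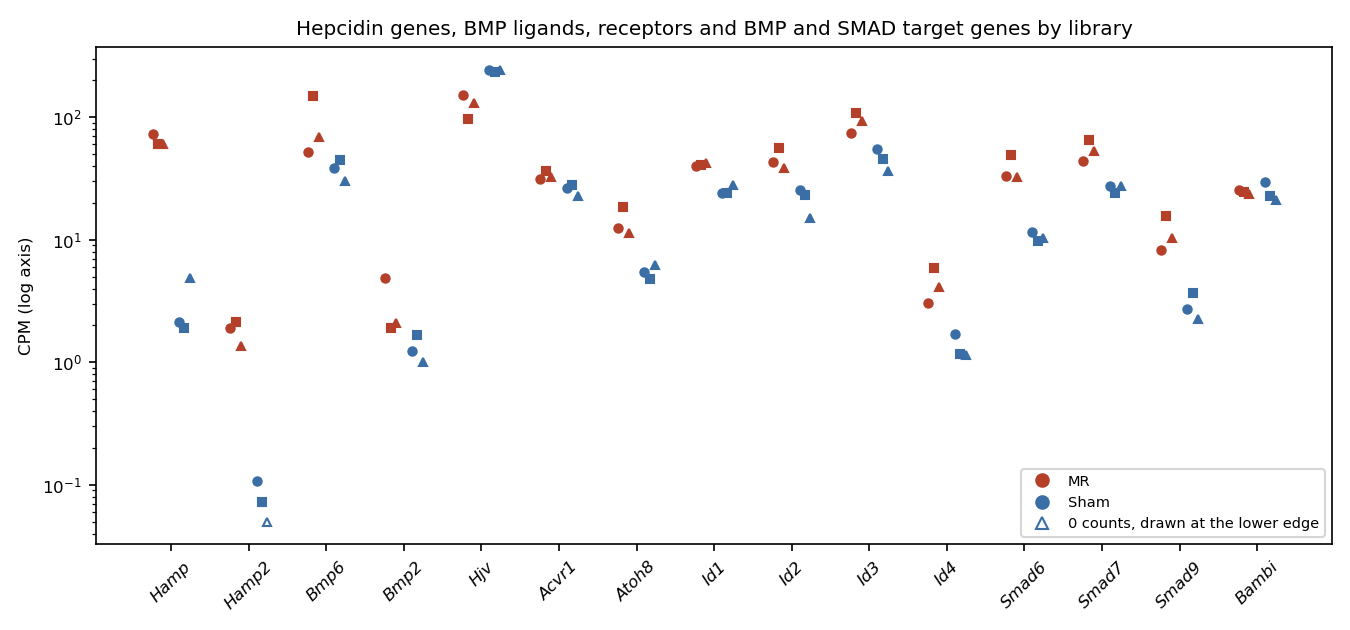
Levels in CPM (log axis) of both hepcidin genes, BMP ligands and receptors and BMP and SMAD target genes in the 3 MR and 3 Sham libraries, 1 point per library (circle, square and triangle for libraries 1, 2 and 3). The Id and Smad genes shown and Atoh8 were higher in every MR library, Hjv was lower in every MR library, and Bambi overlapped.

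Of 8 STAT3 and acute phase targets tested, 3 were higher and 0 lower (37.5% and 0%, beside 11.8% and 10.6% of all genes tested). The median log2 fold change was 0.44. Serpina3n, a protease inhibitor, rose by 1.16 ± 0.18, Timp1, an inhibitor of matrix proteases, by 1.24 ± 0.20, and Osmr, the oncostatin M receptor, by 0.59 ± 0.10 (edgeR adjusted p = 0.00330, 0.00396 and 0.00555). These 3 calls held in every leave-one-out fit, and the part of the higher fibroblast and macrophage marker sums in them was not tested. The fibrinogen genes Fga, Fgb and Fgg had 0 counts in all libraries.

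Iron uptake genes besides the members split, with 5 of 13 tested higher and 2 lower (38.5% and 15.4%, median 0.14). The shares over all genes tested were 11.8% higher and 10.6% lower. Trf, the iron carrier transferrin, measured 137, 168 and 104 CPM in MR libraries 1 to 3, against 48.1, 45.5 and 51.8 CPM in Sham libraries 1 to 3 (log2 fold change 1.49 ± 0.16; edgeR adjusted p = 0.000753). Slc39a8, the transporter ZIP8 and closest relative of Slc39a14, rose by 1.15 ± 0.14, and Cybrd1, a ferric reductase, by 1.25 ± 0.26 (edgeR adjusted p = 0.00128 and 0.00998). The adjusted p of Cybrd1 was 0.0590 with MR 3 as the sole MR library, and the other 2 calls held there. Cd163, the macrophage receptor for haemoglobin bound to haptoglobin, rose by 0.75 ± 0.21 (edgeR adjusted p = 0.0283), and it was lost without Sham 1, Sham 2 or Sham 3 (0.104, 0.0898 and 0.0674). Macrophage marker sums were higher in the same libraries, and their part was not tested. Hp, haptoglobin, measured 48.3, 74.5 and 1.20 CPM in MR libraries 1 to 3, against 0.959, 0.219 and 3.47 CPM in Sham libraries 1 to 3, high in the 2 libraries in which Adipoq was high. It was called higher with all libraries (log2 fold change 4.76 ± 1.17; edgeR adjusted p = 0.0189), lost without Sham 1 or Sham 2 (0.0930 and 0.0709), and was -0.35 with MR 3 as the sole MR library. The 2 lower genes, named after their values were seen, were the ferritin receptor Scara5 (-1.22 ± 0.31) and the ferrireductase Steap3 (-0.34 ± 0.10), and each was lost without Sham 2, Sham 3 or MR 3, Scara5 also without Sham 1 and Steap3 without MR 2 (highest adjusted p 0.0750 and 0.150).

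In the storage list, Ncoa4, the receptor that delivers ferritin to lysosomes, was the 1 of 3 tested that was higher (33.3%). Its level was 58.9, 73.5 and 68.6 CPM in MR libraries 1 to 3, against 51.2, 51.5 and 50.7 CPM in Sham libraries 1 to 3 (log2 fold change 0.39 ± 0.10; edgeR adjusted p = 0.0209). The groups did not overlap, but the call was lost without MR 2, MR 3 or any Sham library (highest adjusted p 0.0653). Of 10 further regulators that sense iron or haem, 1 was higher and 1 lower (10% each, beside 11.8% and 10.6% of all genes tested). Fbxl5, which degrades iron regulatory protein 2, was at -0.39 ± 0.10 and Bach1, a haem-sensing repressor, at 0.33 ± 0.10 on the log2 scale (edgeR adjusted p = 0.0218 and 0.0347). Fbxl5 was lost without MR 2, Sham 1 or Sham 2 and Bach1 without MR 2, MR 3 or any Sham library (highest adjusted p 0.0791 and 0.130). Aco1 and Ireb2, the iron regulatory proteins themselves, had log2 fold changes of -0.11 ± 0.08 and -0.22 ± 0.10 and did not pass (edgeR adjusted p = 0.368 and 0.143).

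Most called genes of iron-sulphur cluster assembly and haem synthesis were lower in MR. For iron-sulphur cluster assembly, 11 of 31 tested were lower and 1 higher (35.5% and 3.23%, beside 10.6% and 11.8% of all genes tested). The median was -0.25 on the log2 scale, and 7 of the lower calls held whichever library was left out. Glrx5, a glutaredoxin that passes on clusters, measured 22.6, 21.8 and 21.7 CPM in MR libraries 1 to 3, against 39.0, 32.0 and 34.6 CPM in Sham libraries 1 to 3 (log2 fold change -0.68 ± 0.10; edgeR adjusted p = 0.00253). Bola3, a cluster assembly factor, fell by 0.66 (SE 0.12) and Cisd1, the outer membrane protein mitoNEET, fell by 0.58 (SE 0.10; edgeR adjusted p = 0.00567 and 0.00622). For haem synthesis, 5 of 17 tested were lower and 1 higher (29.4% and 5.88%), with a median of -0.22. Clpx, which activates the first enzyme of the pathway, fell by 0.65 (SE 0.11), Tmem14c, a porphyrin carrier, fell by 0.44 (SE 0.09), and Urod, a cytosolic enzyme of the pathway, fell by 0.43 (SE 0.11; edgeR adjusted p = 0.00533, 0.0103 and 0.0254). Urod was lost without MR 2, Sham 1 or Sham 3 (highest adjusted p 0.0881). With library totals the counts were 6 lower and 5 higher for cluster assembly and 1 lower and 3 higher for haem synthesis, so the balance of both lists depends on the scaling. Summed cardiomyocyte markers were lower in the same libraries, and their part in these falls was not tested.

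Haem breakdown and oxidative stress genes changed in both directions. Of 11 haem breakdown genes tested besides Hmox1, the 2 higher were Hp and Cd163 and the 1 lower was Hmox2, the constitutive haem oxygenase (-0.29 ± 0.09; edgeR adjusted p = 0.0364), which was lost without any single library except Sham 3 (highest adjusted p 0.107). For NRF2 targets, 3 of 15 were higher and 2 lower. G6pdx, the first enzyme of the pentose phosphate pathway, rose by 0.64 ± 0.12 and Osgin1, an oxidative stress response gene, by 0.75 ± 0.16 (edgeR adjusted p = 0.00665 and 0.0122), and both held in every leave-one-out fit. Prdx1, a peroxiredoxin, fell by 0.36 (SE 0.10; edgeR adjusted p = 0.0321), a call lost without MR 2, MR 3 or any Sham library (highest adjusted p 0.107). Of 16 ferroptosis regulators, 3 were higher and 0 lower. These were Ncoa4, Sat1, a polyamine enzyme (0.39 ± 0.12), and Slc3a2, the heavy chain of the cystine importer (0.26 ± 0.08), with edgeR adjusted p of 0.0442 and 0.0450 for Sat1 and Slc3a2. Sat1 was lost without any single library except MR 1 and Slc3a2 without any single library (highest adjusted p 0.151 and 0.141). The shares higher and lower were 18.2% and 9.09% for haem breakdown, 20% and 13.3% for NRF2 targets and 18.8% and 0% for ferroptosis regulators. Of all genes tested, 11.8% were higher and 10.6% lower.

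**Figure D5:**
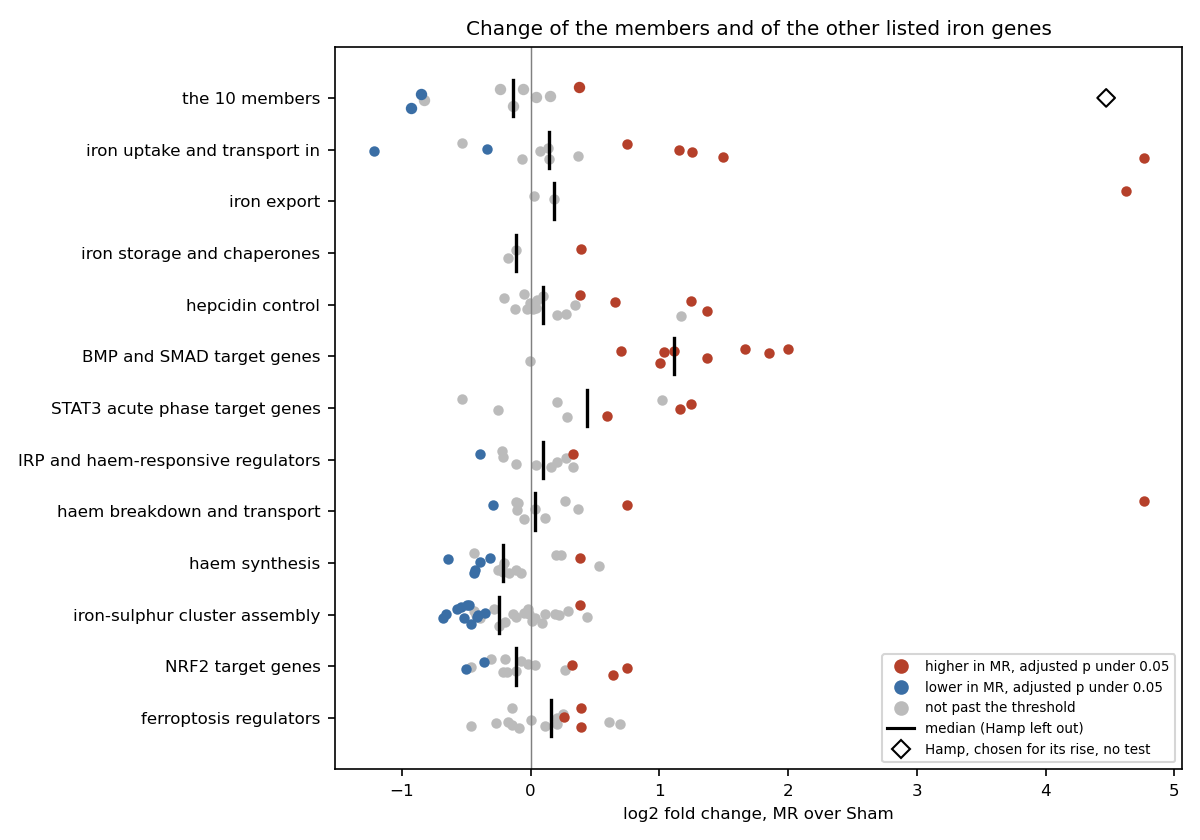
Log2 fold change, MR over Sham, of the 10 genes and of the other tested genes of each iron list, 1 point per gene, coloured by call, with the list's median as a black bar. The BMP and SMAD target genes lay furthest right, with a median of 1.11, and the iron-sulphur cluster genes furthest left of the pathway lists, with a median of -0.25.

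The 5 protein-coding genes whose profile over the 6 libraries was most like that of Hamp were A2m, Myoc, Vsig4, Cxcl13 and Ryr3. Likeness was the root mean square difference of log2(CPM + 0.5) after each gene was centred on its Sham mean, and it was 0.54 for A2m, 0.58 for Myoc, 0.61 for Vsig4, 0.79 for Cxcl13 and 0.83 for Ryr3. Vsig4, a complement receptor of macrophages, measured 35.8, 31.2 and 26.7 CPM in MR libraries 1 to 3, against 1.86, 1.61 and 0.940 CPM in Sham libraries 1 to 3. Myoc, the secreted protein myocilin, was at 30.1, 32.8 and 20.5 CPM in MR, against 0.906, 1.82 and 2.89 CPM in Sham. Ryr3, an intracellular calcium channel, was at 27.3, 46.4 and 33.9 CPM in MR, against 2.93, 3.06 and 2.31 CPM in Sham. A2m and Cxcl13 were at most 0.145 CPM in Sham, so that their likeness rests on the pseudocount.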

How the data were processed

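Per the submitters' processing notes, mouse build GRCm39 was used with HISAT2 2.1.0, featureCounts (Subread 2.0.1), DESeq2, SAMtools, fastp, FastQC and MultiQC. Which annotation release was counted, and with which strand setting, is not given in the sources used here: reads of overlapping or antisense genes may be shared. Per the labels' protocols, libraries came from a TruSeq Stranded mRNA kit and were sequenced as 150 bp paired ends. The deposited table holds whole-number counts per gene and library, not normalized, per the file headers and the values. TPM values made by the authors (scaled by gene length and library) stand beside them, per the file headers. A log2 fold change and an adjusted p-value of MR against Sham were also deposited by the authors, and appear here under the authors' name alone.

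Counts were tested with edgeR 4.0.16 in R 4.3.3 (TMM, filterByExpr, quasi-likelihood test, 2 groups without covariates, Benjamini-Hochberg over 15218 genes, threshold 0.05). The genes tested held 99.8% of the counts. CPM used TMM-scaled library sizes, and the SE of a log2 fold change is the fitted coefficient over the square root of F. The test was checked on simulated counts. A floor of 3 counts was 0.150 to 0.212 CPM of the library totals. Of the columns with per-sample values, 0 were left unused, and 3320 genes had no symbol. Chi-square per degree of freedom between libraries of 1 group was 13.1 to 22.8, where sampling noise alone gives about 1, so none was counted as a duplicate.

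The members and the gene lists were chosen with earlier results of these data known. Named genes are the 10 members, up to 3 further genes per pathway list with the smallest p among those called, the 5 protein-coding genes closest to Hamp by root mean square difference of log2(CPM + 0.5), Hamp2, ferritin copies, and marker genes beside a result. Promoter windows come from RefSeq (GRCm38.p6) and UTRs from GENCODE M21, an older build than the files', and were matched by symbol. Alternatives were DESeq2 size factors, library totals, no filter on low counts, a minimum of 1 CPM in 3 libraries, DESeq2 1.42.0, limma-voom (limma 3.58.1), the replicate number as a block, each library left out in turn, and TPM in place of CPM. MR 3 as the sole MR library was added after the data were seen, because adipocyte transcripts were present in MR 1 and MR 2; the lone library is then assumed to vary like the Sham libraries.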

Additional observations from a re-analysis of the deposited data

How the results depend on the processing

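With all 6 libraries 3408 genes were called, and leaving out a library gave 1583 (without Sham 1) to 3453 (without MR 1), with 1897 without Sham 2 and 1941 without MR 2. The other listed iron genes called ranged from 17 to 30 higher and from 11 to 24 lower over the 6 leave-one-out fits, beside 28 and 22 with all libraries, and the members called other than Hamp from 1 to 2, beside 3. With library totals 47 listed genes were higher and 8 lower, and over all genes 4025 were higher and 574 lower, beside 1793 and 1615 with TMM. MR 3 as the sole MR library gave 976 genes in all, and 18 higher and 4 lower on the lists. With 1 library in a group, fewer calls can be made. The log2 fold change of Hp was then -0.35, reversed from 4.76 with all libraries. With no filter on low counts 4507 of 28032 genes were called. With the replicate number as a block (paired fit, replicate block) 3085 genes were called, 26 listed genes higher and 20 lower, with adjusted p of 0.0551 for Ftl1 and 0.0426 for Tfrc. Deviations of same-numbered libraries correlated at -0.0194, 0.00487 and -0.169 over genes, and those of differently numbered libraries at -0.162 to 0.182. No pairing by number was seen, but 3 libraries per group are too few to exclude it. The cause of these shifts was not tested. Depth limits Hamp in Sham (133 counts in all) and Hamp2 (3 counts in all).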
